A study of Mus musculus with 2 samples.

Results

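Pax3, Six2, Six4, Six5, Eya1, Eya2, Eya4 and Lbx1 are regulators that act before or beside the myogenic determination factors when skeletal muscle forms in the embryo. The 8 genes were chosen by symbol from the 26100 genes that both libraries of the study list. No rule on their measured values was used, but earlier results of these data were known. In short, Six4, Eya1 and Eya4 were the members found at more than a few counts per 1000000 UMIs in the induced myogenic progenitor cells, each with its own pattern over the stages of the culture. Pax3 was scarce in the fibroblast library, at 0.576 counts per 1000000 UMIs, and nearly absent from the progenitor library. Six2, Eya2 and Lbx1 were also scarce wherever they were found.

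Pax3 is a paired-box transcription factor of the somite that acts ahead of Myf5 and Myod1, and its relative Pax7 takes over in the satellite cells, the stem cells of adult muscle. The products of Six2, Six4 and Six5 are homeodomain transcription factors of a family that binds a DNA element called MEF3. EYA proteins are coactivators with phosphatase activity that bind that family and help turn on Pax3, the myogenic factors and genes of contraction. Lbx1 is a homeobox gene of the precursors that leave the somite for the limb.

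The study profiled 2 mouse cultures by droplet RNA sequencing, a method that tags RNA molecules at their 3′ ends with unique molecular identifiers (UMIs) so that copies are counted once. Mouse embryonic fibroblasts (MEFs), a connective tissue culture, were grown in MEF media. Induced myogenic progenitor cells (iMPCs) were made from such fibroblasts with MyoD and a treatment abbreviated F/R/C, and were then kept in F/R/C media. Each culture is 1 library. Both carry the genotype Tg:Pax7-nGFP/C57BL6;DBA2, and the design text speaks of 1 stable iMPC clone. The protocol field of the MEF library repeats the iMPC text, and its own treatment label was followed here. The 3′ counts do not separate an introduced Myod1 from the cells' own gene.

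Of the 8 members, 4 had promoter windows in the RefSeq table for GRCm38, each reaching from 250 bases before to 50 bases after an annotated start. These are Six2 and Six5 with 1 window each, and Six4 and Eya4 with 2 each. The MEF3 element, searched as TCAGGTTTC on both strands, is in 141 of 32851 such windows (0.429%). It is in 1 window of Six4, itself a gene for a MEF3-binding protein, and in that of Myog, the differentiation factor used below to stage the cells. It was not in the windows of Six2, Six5 and Eya4. The E-box CAGCTG, which is its own reverse complement, was in none of these members' windows and in 16.3% of all windows. Both MEF3 matches are printed because the products of Six4 and its relatives are known to bind this element, with the match in capitals within 30 bases.
Six4, chr12:73113325-73113354, minus strand, match at 99 bases before the start used by the window and inside an annotated UTR exon of Six4: tggcctggggGAAACCTGAtcggccagatc
Myog, chr1:134289910-134289939, plus strand, match at 84 bases before the start and in no annotated exon: agaggggggcTCAGGTTTCtgtggcgttgg
A match is a string of letters, and binding was not measured.

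Cells were staged by UMIs of genes outside the 8. The MEF library gave 6043 cells with at most 20% mitochondrial UMIs, with a median of 18929 UMIs. The iMPC library gave 9349 cells above a UMI minimum of about 8000 under the same mitochondrial limit, with a median of 20846. Among these, 2180 cells had Pax7 and no Myog (the Pax7 cells, the progenitor end), and 1724 had 5 or more Myog and at most 1 Ckm (the Myog cells, committed). Another 1037 had 5 or more UMIs of muscle creatine kinase Ckm (the Ckm cells, differentiated), and 553 had 5 or more of the fibroblast proteoglycan Dcn (the Dcn cells). Median UMIs ran from 18064 in the Dcn cells to 42148 in the Ckm cells, so that shares of cells with a UMI are given as found and after thinning every cell to 5000 UMIs. The Pax7 and Dcn sets shared 110 cells, the Dcn set shared 18 cells each with the Myog and Ckm sets, and 4001 cells were in no set. The libraries shared 16 cell barcodes. Ribosomal protein genes took 33.2% of UMIs in Pax7 cells, 24.8% in Ckm cells and 21.9% in MEF cells. All 6 fibroblast markers were found in MEF cells, at 5480 counts per 1000000 UMIs (CPM) in sum. Their sums were 2858 CPM in Dcn, 550 in Pax7, 149 in Myog and 64.3 in Ckm cells. The 3 immune and 3 endothelial markers summed to under 4 CPM in each set. The 7 myocyte markers summed to 96.1 CPM in MEF cells and to 53801 CPM in Ckm cells, and 4740.9 CPM of them were found in the Dcn cells.

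Levels are CPM of the summed UMIs of a set with 95% exact Poisson intervals, and shares have exact Clopper-Pearson intervals. All intervals cover counting error only. With 1 library per culture there are no replicates and no test, and differences between cultures cannot be told apart from differences between libraries. A difference is called here when it is at least 2-fold with at least 1 CPM in the higher set, and the share of all genes called is given beside the first count in each comparison.

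Against MEF cells, iMPC cells had more Six4 and Eya4 and less Six5. Of the 4 members with at least 1 CPM, 2 were called higher and 1 lower, while 17.9% of all genes passing that minimum were called higher and 22.9% lower. The fourth, Eya1, was 13.2 CPM in all iMPC cells and 8.85 CPM in MEF cells, a log2 ratio of 0.57 (0.47 to 0.68). In Pax7 cells against MEF cells, Six4, Eya1 and Eya4 were called higher and Six5 lower, 3 and 1 of 4, against 18.2% and 21.1% of all genes. The median log2 ratio of these 4 was 1.72, and that of all genes −0.07. Comparisons with MEF cells share the MEF library.

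**Figure D1:**
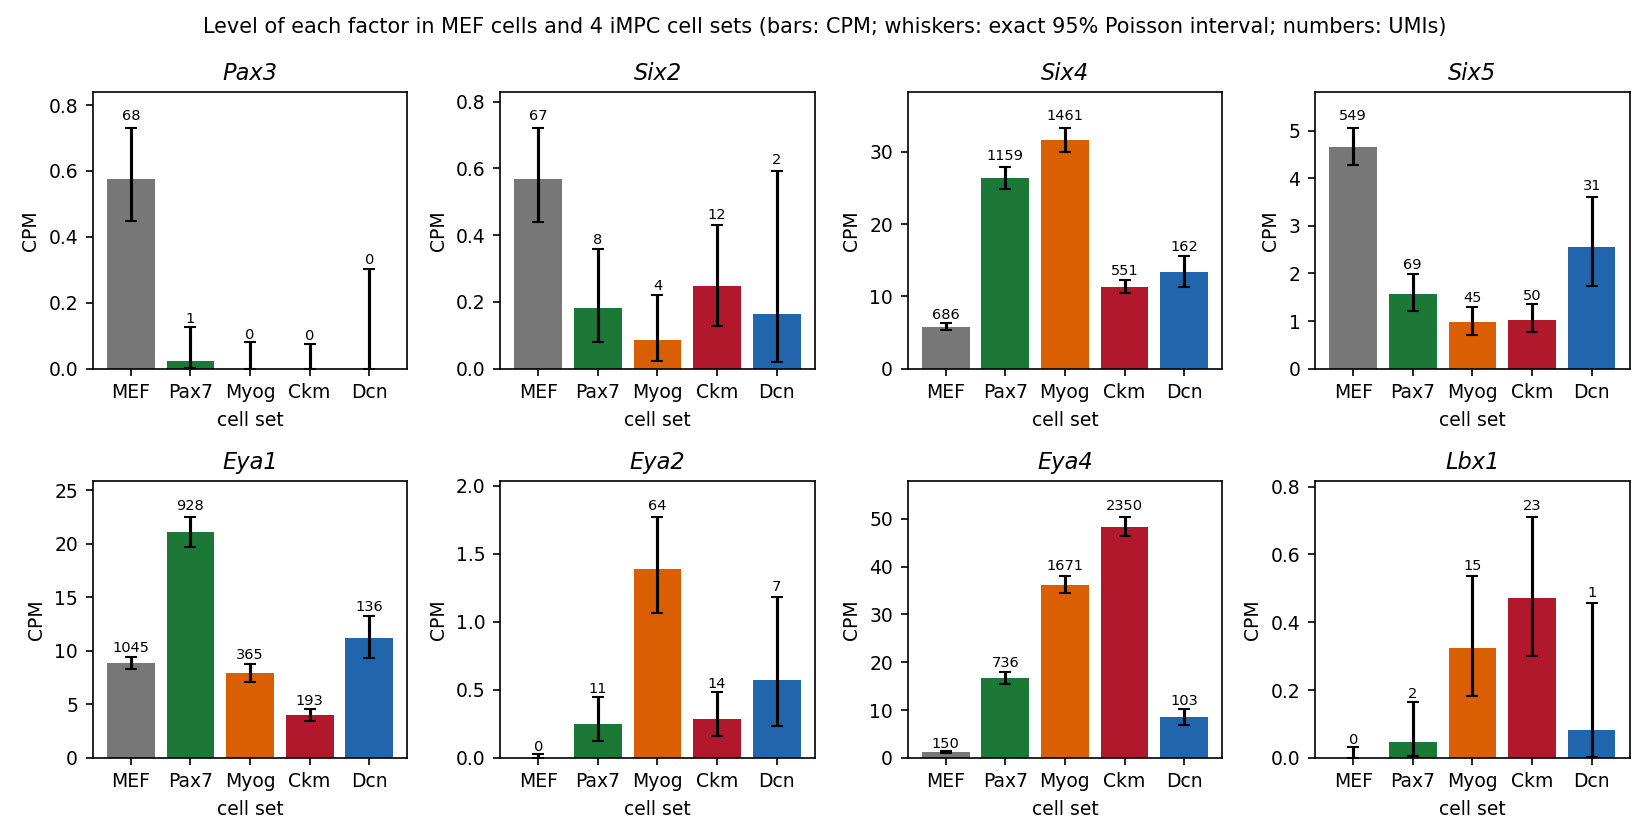
Level of each of the 8 genes in the MEF cells and the 4 iMPC sets, in CPM of summed UMIs, with 95% exact Poisson intervals for counting error; each panel has its own vertical scale. Eya4 is highest in Ckm cells at 48.3 CPM, Six4 in Myog cells at 31.6, Eya1 in Pax7 cells at 21.1, and Pax3, Six2 and Six5 in MEF cells.

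Pax3 (ENSMUSG00000004872, chr1:78101267-78197134, minus strand of GRCm38 in GENCODE M21, as are the positions that follow) had 68 UMIs in MEF cells, which is 0.576 CPM (0.447 to 0.730). The 68 UMIs lay in 49 of 6043 cells (0.811%), of which 12 held 2 or more and the highest 5. In the 9349 iMPC cells Pax3 had 1 UMI, in 1 Pax7 cell. It had 0 UMIs in 1724 Myog cells, 1037 Ckm cells and 553 Dcn cells, which, at 3 counts of the cells, allows shares of up to 0.174%, 0.289% and 0.542% of cells with a UMI at this depth. The log2 ratio of iMPC to MEF cells was −7.07 (−12.39 to −4.54). Pax3 did not reach 1 CPM in any of these sets, so that it enters no count of called genes. Pax7, its relative, was 116 CPM in the Pax7 cells that it defines and had 2 UMIs in the MEF library.

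Markers of neural crest, glia and melanocytes, cells in which Pax3 is also known, are given for the MEF library by 5 genes. Sox10 had 1 UMI there, Erbb3 and Dct had 2 each and Foxd3 had 0, while Pmel had 66 (0.559 CPM). The part of such cells in the Pax3 UMIs was not tested.

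Lbx1 (ENSMUSG00000025216, chr19:45232684-45235812, minus strand) went the other way, at a low level. It had 0 UMIs in 6043 MEF cells, which, at 3 counts of the cells, allows up to 0.0496% of cells with a UMI at this depth and sets no limit on cells that express it. In iMPC cells it had 64 UMIs in 58 cells, 0.275 CPM (0.212 to 0.351), which is at least 10.8-fold higher than 3 counts over the MEF library. By set it had 2 UMIs in Pax7 cells (0.0454 CPM), 15 in Myog cells (0.325), 23 in Ckm cells (0.473) and 1 in Dcn cells. The Myog and Ckm intervals overlap, at 0.182 to 0.536 and 0.300 to 0.709 CPM, and both lie above that of the Pax7 cells, which ends at 0.164. iMPC barcodes of 1 to 100 UMIs, which hold free RNA and no cell, had Lbx1 at 0.799 CPM (0.321 to 1.65). With 5% of that profile subtracted, the log2 ratio of Myog to Pax7 cells went from 2.84 (0.73 to 6.01) to 5.70. This ratio rests on the 2 UMIs in Pax7 cells, most of which the subtraction removes, so 5.70 cannot be read as a larger difference.

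Six4 (ENSMUSG00000034460, chr12:73099609-73113456, minus strand) had 686 UMIs in MEF cells, 1159 in Pax7 cells, 1461 in Myog cells, 551 in Ckm cells and 162 in Dcn cells. These are 5.81 CPM (5.38 to 6.26) in MEF, 26.3 (24.8 to 27.9) in Pax7, 31.6 (30.02 to 33.3) in Myog, 11.3 (10.4 to 12.3) in Ckm and 13.3 (11.3 to 15.5) in Dcn cells. Every iMPC set was above the MEF cells, progenitor and committed cells were the highest, and the Ckm and Dcn cells were neighbours whose intervals overlap. The share of cells with a Six4 UMI was 9.78% of MEF cells, 36.1% of Pax7 cells and 50.3% of Myog cells. After thinning it was 3.02%, 11.8% and 15.6%, and 5.40% of Ckm cells. The log2 ratio was 1.97 (1.85 to 2.09) for all iMPC against MEF cells and 2.18 for Pax7 against MEF cells. It was 0.26 for Myog against Pax7 cells and −1.48 (−1.63 to −1.34) for Ckm against Myog cells.

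Six2 (ENSMUSG00000024134, chr17:85684277-85688274, minus strand), known from nephron progenitors and from connective tissue of the embryo, had 67 UMIs in 59 MEF cells, 0.567 CPM (0.440 to 0.721). In the iMPC cells it had 44 UMIs in 44 cells, never more than 1 to a cell. The sets held 8 in Pax7, 4 in Myog, 12 in Ckm and 2 in Dcn cells. The levels are 0.182, 0.0866, 0.247 and 0.164 CPM, the intervals of these 4 all overlap, and that of Dcn cells (0.0199 to 0.593) also overlaps MEF cells. For all iMPC against MEF cells the log2 ratio was −1.59 (−2.17 to −1.02). Like Pax3, it stayed under 1 CPM in these sets and was not called.

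Six5 (ENSMUSG00000040841, chr7:19094594-19098549, plus strand), which lies next to the myotonic dystrophy kinase gene Dmpk, had 549 UMIs in MEF cells, 4.65 CPM (4.27 to 5.06). It had 69 in Pax7 cells (1.57 CPM, 1.22 to 1.98), 45 in Myog cells (0.974 CPM), 50 in Ckm cells (1.03 CPM) and 31 in Dcn cells (2.55 CPM, 1.73 to 3.62). MEF cells were the highest, apart from all others. Dcn and Pax7 cells overlap, as do Pax7, Ckm and Myog cells. The log2 ratio of iMPC to MEF cells was −1.86 (−2.07 to −1.65). In thinned cells a Six5 UMI was found in 2.21% of MEF, 0.688% of Pax7 and 1.45% of Dcn cells. iMPC barcodes of 1 to 100 UMIs had 1.83 CPM, within the range of the iMPC sets.

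Six5 and Dmpk lie on the plus strand of chromosome 7 (GRCm38, GENCODE M21), with Dmpk ending 772 bases before the start of Six5. Their levels differed in direction over the same cells. Dmpk was 13.6 CPM in MEF, 19.3 in Pax7, 71.8 in Myog, 92.4 in Ckm and 21.3 in Dcn cells. Dmwd, 11817 bases away on the far side of Dmpk, was 40.1 CPM in MEF, 43.3 in Pax7, 90.1 in Myog and 100.8 in Ckm cells. Fbxo46, 21309 bases away on the other side of Six5, was 6.72 CPM in MEF, 3.50 in Pax7, 2.21 in Myog and 1.87 in Ckm cells. Among these neighbours Dmpk and Dmwd were thus lowest where Six5 was highest, and Fbxo46 had the same order of MEF over Pax7 over Myog cells as Six5.

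**Figure D2:**
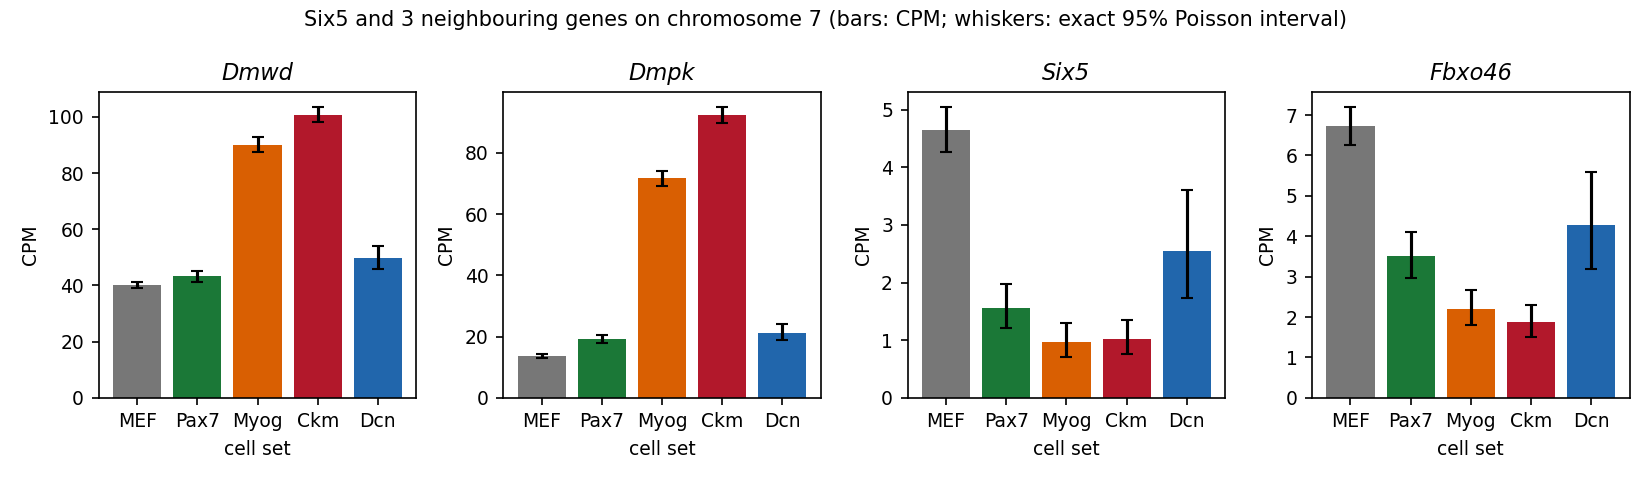
Level of Six5 and of its 3 neighbours Dmwd, Dmpk and Fbxo46 on chromosome 7 in the MEF cells and the 4 iMPC sets, in CPM with 95% exact Poisson intervals. Six5 and Fbxo46 are highest in MEF cells at 4.65 and 6.72 CPM, and Dmpk and Dmwd in Ckm cells at 92.4 and 100.8 CPM.

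Eya1 (ENSMUSG00000025932, chr1:14168954-14310235, minus strand), a coactivator of the Six4 family, was the member with its highest level in Pax7 cells. It had 1045 UMIs in MEF cells, 928 in Pax7, 365 in Myog, 193 in Ckm and 136 in Dcn cells. These are 8.85 CPM (8.32 to 9.40), 21.1 (19.7 to 22.5), 7.90 (7.11 to 8.75), 3.97 (3.43 to 4.57) and 11.2 (9.37 to 13.2). Dcn and MEF cells overlap, as do MEF and Myog cells, while Pax7 cells lie above and Ckm cells below all others. Thinned shares were 4.22% of MEF, 10.1% of Pax7, 3.77% of Myog and 2.12% of Ckm cells. The log2 ratio was 1.25 (1.12 to 1.38) for Pax7 against MEF cells, −1.42 (−1.59 to −1.24) for Myog against Pax7 cells and −0.99 for Ckm against Myog cells.

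Eya4 (ENSMUSG00000010461, chr10:23102963-23350786, minus strand), its paralog, had the opposite order along the muscle sets. It had 150 UMIs in MEF cells, 736 in Pax7, 1671 in Myog, 2350 in Ckm and 103 in Dcn cells. The levels were 1.27 CPM (1.08 to 1.49) in MEF, 16.7 (15.5 to 18.0) in Pax7, 36.2 (34.5 to 37.9) in Myog, 48.3 (46.4 to 50.3) in Ckm and 8.46 (6.91 to 10.3) in Dcn cells, with no overlap between any of these intervals. An Eya4 UMI was found in 2.27% of MEF cells and in 77.3% of Ckm cells, or 0.764% and 19.3% after thinning, with 7.16% of Pax7 and 15.4% of Myog cells between. For all iMPC against MEF cells the log2 ratio was 4.52 (4.29 to 4.77). It was 1.11 (0.99 to 1.24) for Myog against Pax7 cells and 0.42 (0.33 to 0.51) for Ckm against Myog cells.

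The level of Eya4 in Dcn cells came largely from a few of them. The 407 Dcn cells in no other set had 3.95 CPM (2.70 to 5.58), and the 110 that were also Pax7 cells had 3.50 (1.51 to 6.89). The 36 that were also Myog or Ckm cells had 35.2 CPM (27.1 to 45.0) at a median of 42213 UMIs, and Scrublet, a doublet caller, marked 27 of these 36 (75.0%) against 3.60% of all iMPC cells. iMPC barcodes of 1 to 100 and of 200 to 600 UMIs had Eya4 at 21.5 and 24.5 CPM. The log2 ratio of Eya4 in Dcn against MEF cells was 2.74 (2.36 to 3.11). It was 1.64 with cells of more than 1 set left out, 1.89 with doublets removed, and 2.61 with 5% of free RNA subtracted. Six4 in Dcn cells of no other set was 11.2 CPM and Eya1 10.9, against 13.3 and 11.2 in all Dcn cells.

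Eya2 (ENSMUSG00000017897, chr2:165595032-165771727, plus strand), another paralog, had 0 UMIs in MEF cells and 133 in iMPC cells, 0.571 CPM (0.478 to 0.677), which is at least 22.5-fold higher than 3 counts over the MEF library. It had 11 UMIs in Pax7 cells (0.2499 CPM, 0.125 to 0.447), 64 in Myog cells (1.39 CPM, 1.07 to 1.77), 14 in Ckm cells (0.288 CPM, 0.157 to 0.483) and 7 in Dcn cells (0.575 CPM, 0.231 to 1.18). The Myog cells lie above the Pax7 and Ckm cells, whose intervals overlap each other. Free RNA in barcodes of 1 to 100 UMIs held Eya2 at 0.457 CPM (0.124 to 1.17), which overlaps every iMPC set. In barcodes of 200 to 600 UMIs it was 0.612 CPM (0.326 to 1.05), which ends below the Myog cells. The log2 ratio was 2.47 (1.54 to 3.54) for Myog against Pax7 cells and −2.27 (−3.22 to −1.42) for Ckm against Myog cells. With every cell thinned to 8000 UMIs before the sets were formed the latter was −0.06, which cannot be read as a like level. In the cells thinned for the bins below, the 241 with 5 to 14 Ckm UMIs and the 18 with 15 or more had 0 Eya2 UMIs. A count of 0 is replaced by 3 counts in such a ratio.

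From Pax7 to Myog cells, 2 of 5 members with at least 1 CPM, Eya2 and Eya4, were called higher and Eya1 lower, against 8.01% and 15.8% of all genes. With stricter set thresholds the log2 ratio of Eya4 was 0.86, below 2-fold, and with cells thinned to 8000 UMIs it was 0.99. From Myog to Ckm cells, Six4 and Eya2 were called lower and 0 of 5 higher, against 17.6% and 7.58% of all genes. With cells thinned to 8000 UMIs the ratio of Six4 was −0.96 and neither gene was called. Eya2 had too few UMIs there to read, and Six5, at few UMIs, was called higher at 1.26. Eya1, at −0.99, was −1.26 with doublets removed. For Dcn against MEF cells, Six4 and Eya4 were called higher and 0 of 4 lower, against 17.6% and 14.8%. The ratio of Six4, 1.20 (0.94 to 1.44), was 0.95 with cells of more than 1 set left out and 0.97 with doublets removed, both short of 2-fold. For Dcn against Pax7 cells 0 of 4 were called in either direction, against 14.4% higher and 7.66% lower. In that comparison Six4, Eya1 and Eya4 had log2 ratios of −0.98, −0.92 and −0.98, just short of 2-fold. With cells of more than 1 set left out those of Six4 and Eya4 were −1.26 and −2.14.

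Within the iMPC library the opposite order of Eya1 and Eya4 was also found when all cells were thinned to 8000 UMIs and binned by their Myog UMIs. In 4939 cells without Myog, Eya1 was 19.5 CPM and Eya4 15.03. In cells with 1 to 4 Myog UMIs they were 15.7 and 27.7 CPM. In cells with 5 to 14 they were 6.84 and 43.8, and with 15 to 29 they were 3.69 and 45.1. The 92 cells with 30 or more had 1.36 CPM of Eya1, from 1 UMI, and 69.3 CPM of Eya4 (51.6 to 91.1). Eya1 was thus lower and Eya4 higher in each next bin, with intervals that overlap among the last 3 bins for Eya1 and between the bins of 5 to 14 and 15 to 29 for Eya4. Six4 stayed between 23.3 and 27.3 CPM over the first 4 bins, with overlapping intervals, and was 46.2 CPM (31.99 to 64.6) in the last. Eya2 went from 0.278 CPM in the first bin to 1.77 (0.881 to 3.16) in the fourth.

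**Figure D3:**
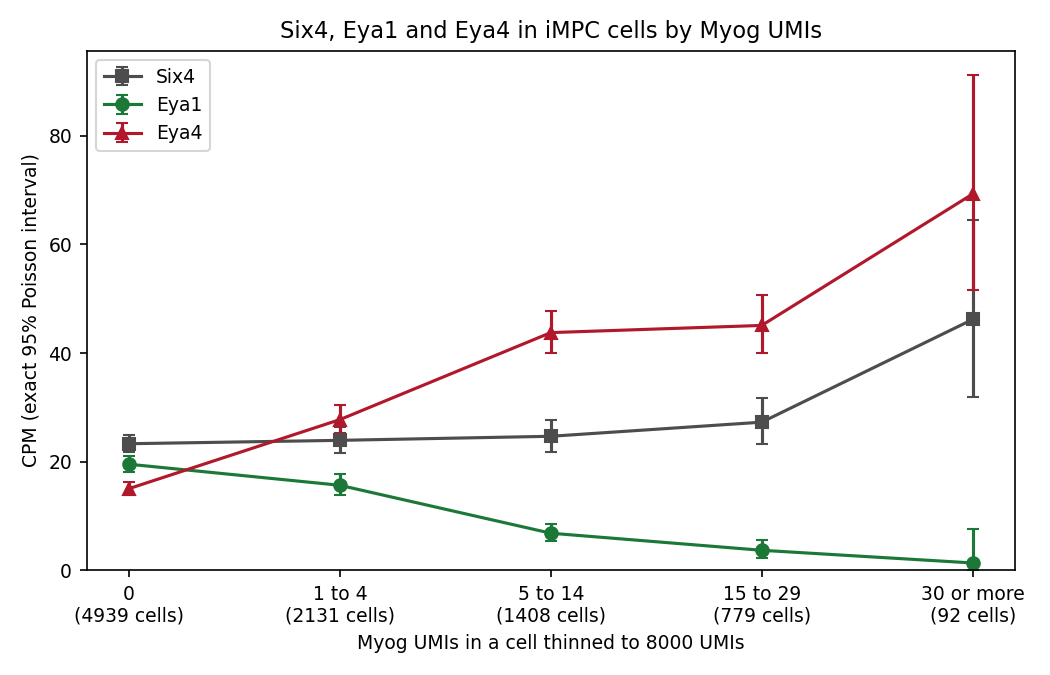
Levels of Six4, Eya1 and Eya4 in iMPC cells binned by their number of Myog UMIs after thinning to 8000 UMIs per cell, in CPM with 95% exact Poisson intervals. Eya1 goes from 19.5 CPM in cells without Myog to 1.36 at 30 or more UMIs, Eya4 from 15.03 to 69.3, and Six4 stays between 23.3 and 27.3 CPM until the last bin.

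Binned by Ckm in the same way, Eya4 was 20.7 CPM at 0 UMIs, 44.9 at 1 to 4 and 56.0 at 5 to 14, while Eya1 was 17.1, 7.33 and 2.07. Six4 was 25.7, 17.8 and 12.4 CPM over those bins. The 18 cells with 15 or more Ckm UMIs were too few to read. Among cells without Myog, Six4 was 21.4 CPM at 0 Pax7 UMIs, 24.7 at 1 and 28.4 at 2 or 3, and only the first and the last of these intervals (19.6 to 23.3 and 23.8 to 33.5) do not overlap. Eya1 was 19.1, 19.9 and 21.3 CPM over the same Pax7 bins, with overlapping intervals. Its level among cells without Myog was therefore not seen to differ with Pax7 at this depth.

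Cells were also split by Mki67, a marker of cycling cells. In Myog cells, Eya1 was 4.42 CPM (3.65 to 5.29) in 1076 cells without Mki67 and 12.8 (11.3 to 14.6) in 630 cells with it. In Ckm cells the levels were 3.35 and 6.98 CPM, and in Pax7 cells 20.4 and 22 with overlapping intervals. The cells without and with Mki67 also differed in the progenitor marker Pax7, at 11.2 and 36.5 CPM in Myog cells and 2.68 and 16.3 in Ckm cells. Its part in the Eya1 values was not tested. Eya4 in Pax7 cells was 11.3 CPM (9.72 to 13.1) without Mki67 and 21.2 (19.5 to 23.1) with it. In MEF cells it was 1.16 CPM (0.959 to 1.38) without and 2.09 (1.41 to 2.98) with Mki67. In Myog cells Eya4 went the other way, at 39.6 and 32.3 CPM. Six4 was higher with Mki67 in MEF cells (5.48 and 8.21 CPM), Pax7 cells (21.99 and 29.9), Myog cells (28.1 and 36.4) and Ckm cells (10.1 and 18.5), and in Dcn cells the intervals overlap. Among cells without Mki67, Eya1 was still higher in Pax7 than in Myog cells and Eya4 still lower.

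**Figure D4:**
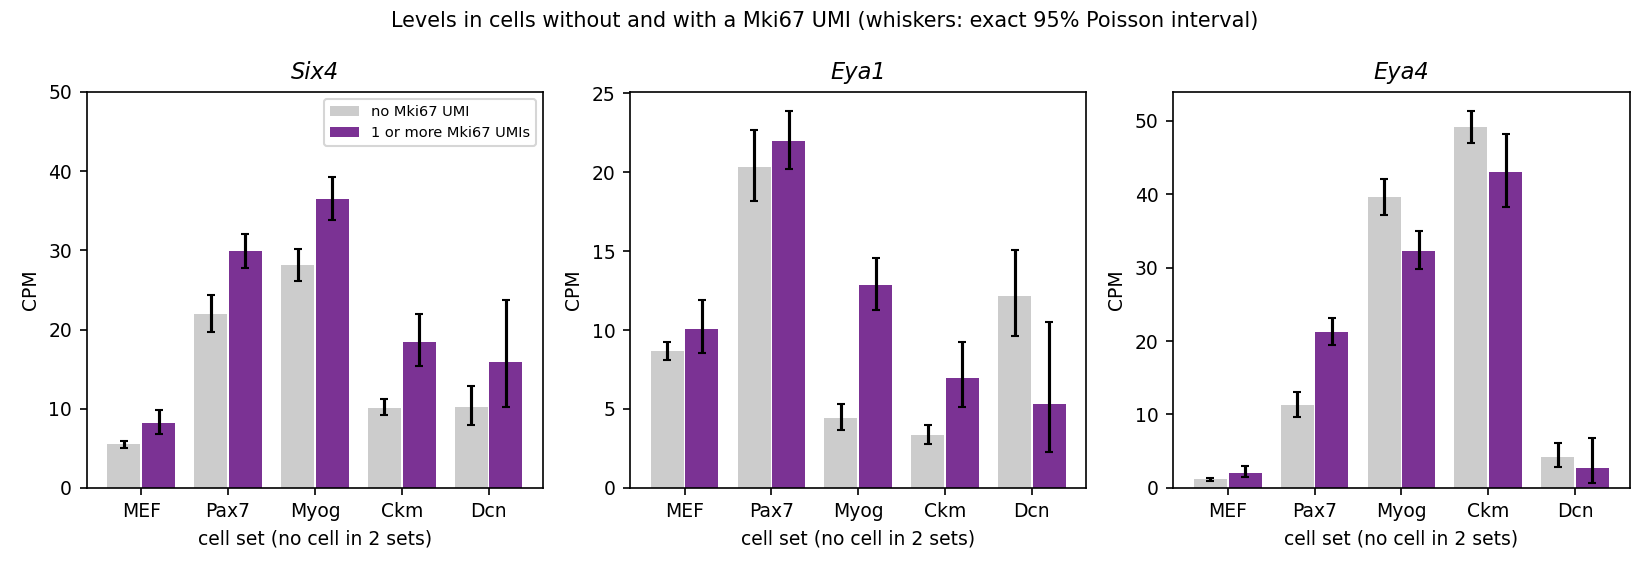
Levels of Six4, Eya1 and Eya4 in cells without and with an Mki67 UMI, in CPM with 95% exact Poisson intervals, for the MEF cells and the 4 iMPC sets with overlapping cells left out. Six4 is higher with Mki67 in MEF, Pax7, Myog and Ckm cells, and Eya1 in Myog cells (4.42 against 12.8 CPM) and Ckm cells. Eya4 is higher with Mki67 in Pax7 cells (11.3 against 21.2 CPM) and MEF cells (1.16 against 2.09 CPM), and lower in Myog cells.

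Few pairs of members could be read at the level of single cells. Over the 28 pairs of members in iMPC cells thinned to 5000 UMIs, 21 had both genes found, and the interval of the odds ratio excluded 0 on the log2 scale for 0 of them. Only 5 of the 21 had 5 or more cells expected together, and the others could hardly differ at this depth. Six4 and Eya1 met in 79 cells, with 71.5 expected if independent, and Six4 and Eya4 in 119 cells with 105.4 expected. Eya1 and Eya4 met in 56 cells with 68.4 expected, a log2 odds ratio of −0.34 (−0.78 to 0.07). With the staging genes the differences were larger. Eya4 met Myog in 596 cells, with 407 expected, at 1.27 (1.07 to 1.47), and met Dcn in 20 with 74.2 expected. Eya1 met Myog in 173 cells with 276 expected, at −1.09 (−1.36 to −0.83), and Pax7 in 184 with 135 expected. Six4 met Pax7 in 209 cells with 208 expected.

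The genes most like each member were sought over 10 sets, the MEF, Pax7, Myog, Ckm and Dcn cells each split by Mki67, among 11193 genes. Only Six4, Eya1 and Eya4 reach the 5 CPM asked for. By Pearson r of log2(CPM + 1), Six4 was most like Cenpv (0.982), Esf1 (0.981) and Naa10 (0.977). Eya1 was most like Sufu (0.953), Polr1c (0.949) and Cdc14a (0.947), and Eya4 most like Mmp15 (0.988), Jag2 (0.987) and Ndufs7 (0.986). The 8 iMPC sets come from 1 library.

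Relatives outside the 8 are given for 4 genes, Six3, Six6 and the cofactors Dach1 and Dach2, whose products act in the same complexes. Six3 and Six6 had at most 15 UMIs in the iMPC cells. Dach1 was 0.669 CPM in MEF, 1.48 in Pax7, 0.303 in Myog, 0.123 in Ckm and 6.82 (5.43 to 8.45) in Dcn cells, which is a log2 ratio of 3.35 (2.89 to 3.81) to MEF and 2.21 to Pax7 cells. Dach2 was 1.27 CPM in MEF cells and had 11 UMIs in the iMPC cells. Dach1 was thus highest in the iMPC set where Eya4 was lowest.

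Of 7 genes known downstream of Pax3 or in migrating limb precursors, 5 were called higher and 0 lower in iMPC against MEF cells, against 17.9% and 22.9% of all genes. Their median log2 ratio was 3.17, and that of all genes −0.16. Fgfr4, a growth factor receptor that Pax3 is known to activate, was 62.3 CPM in iMPC cells and 0 in MEF cells. Its level was 88.6 CPM in Pax7, 82.8 in Myog and 9.82 in Ckm cells, in cells where Pax3 had 1 UMI in all. From Pax7 to Myog cells 0 of the 7 were called higher and 3 lower, against 8.01% and 15.8% of all genes, with Msx1 at −2.61. From Myog to Ckm cells 4 of the 6 with at least 1 CPM were lower, against 17.6% of all genes, with the chemokine receptor Cxcr4 at −3.66. In Dcn against Pax7 cells 4 of 7 were lower, against 7.66% of all genes, with Dmrt2, a gene of the dermomyotome, at −3.05.

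Of 15 other somite and head muscle regulators, 9 reached 1 CPM in iMPC or MEF cells, with 4 called higher and 1 lower, against 17.9% and 22.9% of all genes. Msc (musculin) was 17.5 CPM in iMPC cells and had 1 UMI in MEF cells, and En1 was 24.1 and 80.8 CPM. From Pax7 to Myog cells Msc had a log2 ratio of −2.58 (37.2 and 6.21 CPM). The myogenic regulators Pax7, Myf5, Myod1, Myog and Myf6 were all 5 called higher in iMPC cells, but Pax7 and Myog define the sets.

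Of 7 genes known downstream of the Six4 family and its EYA partners in muscle, 6 were matched by symbol to a single listed gene. Aldoa was not matched in this way and is left out of the counts, so its level is not given here. In Myog against Pax7 cells 2 of 5 with at least 1 CPM were called higher, Myog and Slc12a2, and 1 lower, against 8.01% and 15.8% of all genes. In Ckm against Myog cells 1 of 5 was called higher, Ckm, and 1 lower, against 7.58% and 17.6%. Myog and Ckm themselves set the cells. Outside these, Ezr (ezrin) was 24.6 CPM in Pax7 and 7.62 in Myog cells, a log2 ratio of −1.69. Ccnd1 (cyclin D1) was 141.7 CPM in Myog and 34.4 in Ckm cells, at −2.04, beside −1.48 for Six4. The ion transporter Slc12a2 was 25.6 CPM in MEF, 4.82 in Pax7, 33.4 in Myog and 34.7 in Ckm cells. Its log2 ratio was −2.41 for Pax7 against MEF cells and 2.79 (2.58 to 3.01) for Myog against Pax7 cells, beside 2.18 and 0.26 for Six4.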

How the data were processed

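Raw UMI counts per gene and barcode were deposited by the authors in 2 matrices, one for each culture. Per the file headers their writer was Cell Ranger, and the submitters' processing notes name Cell Ranger 4.0, Seurat 3.2.3 and GRCm38.p6. The annotation release, and whether strand or introns were used in counting, are not given in the sources used here. For iMPC all 6794880 barcodes were deposited, 2707590 with any UMI, without a selection of cells. For MEF there were 6113, and how these were selected is not given in the sources used here.

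The 26100 genes of both matrices were used, and 24 listed for MEF only were dropped. Total UMIs in the listed barcodes were 282903287 for iMPC and 118541302 for MEF. A UMI minimum of about 8000 left 9540 iMPC cells, and the 20% mitochondrial limit 9349. Doublets were kept and removed as an alternative, with Scrublet, which marked 1 MEF cell (0.0165%), too few to rely on there. Thinning drew UMIs without replacement and left out 284 MEF cells under 5000 UMIs. Ratios have exact conditional intervals. A set with 0 UMIs was given 3 counts and its ratio is a bound, and no ratio was formed when both sets had 3 counts or fewer. Profiles of free RNA came from 2636580 barcodes with 1 to 100 UMIs and 48846 with 200 to 600 in the iMPC matrix, and 5% of it was subtracted as an alternative. The procedure was tested on simulated data.

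The members and gene lists were chosen with earlier results of these data known. Genes outside the 8 were named by rule: the largest ratio in each direction of a list with at least 5 CPM in the higher set, and the 3 most alike over the 10 sets. The downstream lists and Six5's neighbours come from general knowledge. The bins, the split of Dcn cells, Dach2, Six3 and Six6, and the MEF cells with Six2 or Pax3 were chosen after values were seen. Of the fixed list of relatives of the 8 genes 4 are reported here. Tools were scanpy 1.11.5, scipy 1.17.1, numpy 2.4.6, pandas 2.3.3 and matplotlib 3.10.9 in Python 3.11.15. Positions are from GENCODE M21, and sequences from RefSeq on GRCm38.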

Additional observations from a re-analysis of the deposited data

Results flagged for a closer look

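iMPC barcodes of 1 to 100 UMIs, which are outside the cells described above, held UMIs of 6 of the 8 genes above what a count of 0 allows (0.342 CPM). Their levels there were 13.2 CPM for Six4, 1.83 for Six5, 7.65 for Eya1, 0.457 for Eya2, 21.5 for Eya4 and 0.799 for Lbx1. Pax3 had 0 UMIs in these barcodes and Six2 had 1.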

How the results depend on the processing

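No member called in the report's own setting had a ratio of the other sign under any alternative tried. Over single genes and alternatives, 454 ratios stayed within their counting interval and 40 did not. Of the shares of cells with a UMI 42 did and 102 did not when the depth per cell or the UMIs asked for were changed, which by construction changes such a share. The count of members called was 3 in iMPC against MEF cells, 4 in Pax7 against MEF, 2 in Dcn against MEF, 3 in Myog against Pax7, 2 in Ckm against Myog and 0 in Dcn against Pax7 cells. Without the minimum level the counts were, in this order, 7, 7, 5, 5, 3 and 1, and with a fold of 4 they were 1, 2, 1, 1, 1 and 0. The share of all genes called was not computed under any alternative, so the counts under alternatives cannot be set against it. For Dcn against MEF cells the count was 1 with doublets removed and 1 with overlapping cells left out. For Ckm against Myog cells it was 1 after thinning to 8000 UMIs, with Six5 the gene called, and 1 with a minimum of 5 CPM. It was 3, all lower, with a 10% mitochondrial maximum, doublets removed, overlapping cells left out, stricter set thresholds, the total changed as below or either free RNA profile subtracted.

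For Dcn against Pax7 cells it was 1 with 12000 UMIs, 1 with a 10% mitochondrial maximum, 2 with doublets removed, 2 with overlapping cells left out, 3 with stricter set thresholds, 1 after thinning, 3 with mitochondrial and ribosomal protein genes kept out of the total, 1 with CPM averaged over cells, 2 with either free RNA profile subtracted and 4 with a fold of 1.5. That change of total moved the median log2 ratio of all genes in iMPC against MEF cells from −0.16 to 0.01. No paired analysis was possible because each culture is 1 library. Pax3, Six2, Eya2 and Lbx1 have few UMIs, which limits their precision.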

Other observations

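Six2 in the MEF library was found beside other genes. The 59 cells with a Six2 UMI and the rest had like depths, with medians of 18685 and 18930.5 UMIs. Among genes of at least 20 CPM in the former, those with the largest ratios, picked after their values were seen, were Hopx at 57.3 against 1.63 CPM (log2 ratio 5.13, 4.71 to 5.54), Asb4 (4.94), Rspo2 (4.55) and the somite homeobox gene Meox1 at 20.8 against 0.984 CPM (4.40). Il1rn (4.39), 3830403N18Rik (4.38), Rtl3 (4.34), Ccn5 (4.29), Ebf2 (4.21) and elastin, Eln (4.12), followed in that order. A Hopx UMI was in 29 of the 59 cells and in 2.01% of the others. In thinned MEF cells Six2 met Eya4 in 3 cells, with 0.160 expected (log2 odds ratio 4.53, 2.07 to 6.39). Of the 15 pairs of members with both genes found in that library, it was the 1 whose interval excluded 0. Only 2 of the 15 had 5 or more cells expected together, and this pair was not among them.

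The 49 MEF cells with a Pax3 UMI had smaller differences, led by the chemokine Ccl11 at 446 against 68.0 CPM (2.71, 2.58 to 2.84), the endothelin receptor Ednrb (2.55) and Satb1 (2.16), and a Ccl11 UMI was in 17 of the 49 and in 14.8% of the others. Their median was 21853 UMIs.

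Erbb3 and Foxd3, 2 genes of the neural crest list, were found in the muscle sets. Erbb3 was 2.50 CPM in Pax7, 18.8 in Myog and 35.2 in Ckm cells, the same order as Eya4. Foxd3 was 0 in Pax7, 1.34 in Myog and 2.08 in Ckm cells, while Sox10 had at most 2 UMIs in each.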
